A study of Drosophila melanogaster with 6 samples.

Results

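The 5 genes described here, Cyp12a4, Cyp12a5, Cyp12b2, Cyp12c1 and Cyp12e1, encode cytochrome P450 enzymes of the Cyp12 family of Drosophila melanogaster. They were taken by name as the Cyp12 genes listed for study, with every probe set that the platform's table assigns to exactly 1 gene, which gave 6 probe sets among 18952 on the array and 5 genes among the 11983 tested. The genes were selected on these same arrays, with their log2 differences between genotypes and between array numbers already known. The differences given for these 5 genes are therefore a description. No p-value of a single member is given, and counts of members past a threshold of the fit over all genes support nothing.

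Cytochrome P450 enzymes are heme proteins that add oxygen to hormones, fatty acids and foreign compounds. Most insect P450s sit in the endoplasmic reticulum, but the Cyp12 family belongs to the mitochondrial class, which receives its electrons from ferredoxin and ferredoxin reductase. Some mitochondrial P450s make the molting hormone ecdysone, whereas the Cyp12 family is known mainly for the handling of insecticides and other foreign compounds in organs such as the midgut and the Malpighian tubules, the renal organ of the fly.

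RNA was extracted from whole 1st instar larvae of 2 genotypes, with 3 arrays per genotype, labelled as biological replicates, and 200 pooled larvae behind each array. Mutant larvae had the genotype dKDM4A KG04636 over ∆dKDM4A, which places an insertion allele of the histone demethylase gene Kdm4A over a deletion. Control larvae, titled wt, had the genotype dKDM4A precise KG06436 over dKDM4A precise NP0618, so both copies come from precise excisions and not from an unmanipulated stock. The labels do not settle whether KG04636 and KG06436 are the same insertion. All larvae were raised at 25 °C and taken about 48 after egg laying, a time to which the labels give no unit. Because whole larvae were used, a lower or higher value cannot be told apart from fewer or more cells of the organs that express the gene.

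The deposited values are log2 expression values, and a difference of 1 on this scale is 2-fold. Across the arrays the median over genes lay between 6.70 and 6.78 and the lower quartile between 4.35 and 4.43. The lowest value of any of the 5 genes was 5.34, so each of them lay above the lower quartile on every array. Kdm4A was lower in the mutant, at 3.44, 3.41 and 3.29, against 5.18, 5.26 and 5.46 in the control, and passed limma (adjusted p = 0.00174). In the fit over all genes, called means a limma adjusted p under 0.05 by the Benjamini-Hochberg method, and 19 of 11983 genes (0.159%) were called.

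Cyp12a5 had by far the largest difference of the 5 genes and Cyp12c1 the next, both towards the mutant. In these 2 genes every mutant array lay above every control array, whereas the groups of Cyp12a4, Cyp12b2 and Cyp12e1 overlapped. All 5 genes had the higher mean in the mutant, with differences from 0.059 to 1.55 and a median of 0.26. Over all genes the median was -0.0060, and 48.2% had the higher mean in the mutant. None of the 5 was called by limma, with or without the replicate number as a block, where 0.159% and 0.818% of all genes were called. At an unadjusted p under 0.05 there were 2 of the 5 in both fits, beside 5.27% of all genes without the block and 11.2% with it. Non-overlapping groups with the mutant higher were found in 4.11% of all genes. In Cyp12a5, Cyp12c1 and Cyp12e1 the mutant was higher within every array number, as in 14.5% of all genes. These counts come from the contrast that was known when the genes were listed, and nothing is read from them.

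Cyp12a5, a gene of arm 3R that has been linked to the activation of the insecticide nitenpyram, had log2 values of 8.17, 8.17 and 8.99 in mutant arrays 1, 2 and 3, against 7.02, 6.91 and 6.74 in control arrays 1, 2 and 3. The mutant arrays were all high, and array 3 stood above the others. The mean was 8.44 ± 0.47 in the mutant and 6.89 ± 0.14 in the control (SD, n = 3 each). The difference was 1.55 with an SE of 0.23, or 2.93-fold. By size of increase Cyp12a5 ranked 18 among 11983 genes, of which 0.467% differed by at least 1 in this direction. Between arrays of the same number the mutant was higher by 2.22-fold for number 1, 2.39-fold for number 2 and 4.75-fold for number 3. Mutant array 3 thus held much of the spread, and without it the difference was 1.28 with an SE of 0.12.

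Cyp12c1, on arm 3L, differed by much less but with little scatter. Its log2 values were 8.41, 8.48 and 8.42 in the mutant, against 8.21, 8.09 and 7.98 in the control. The mutant arrays lay within a narrow band above all control arrays. The mean was 8.44 ± 0.04 in the mutant and 8.09 ± 0.11 in the control (SD, n = 3 each), a difference of 0.34 with an SE of 0.09, or 1.27-fold. The mutant was higher for each number, by 0.20, 0.38 and 0.44 for numbers 1, 2 and 3.

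Cyp12a4, whose overexpression in midgut and Malpighian tubules is known to give resistance to the insecticide lufenuron, lies beside Cyp12a5 on arm 3R but did not share its difference. Its log2 values were 9.76, 9.74 and 10.06 in the mutant, against 9.74, 9.82 and 9.61 in the control. Mutant array 3 was the highest and control array 3 the lowest, and the other 4 arrays lay between them. The mean was 9.85 ± 0.18 in the mutant and 9.72 ± 0.11 in the control (SD, n = 3 each), a difference of 0.13 with an SE of 0.12. The difference was 0.02 for number 1, -0.08 for number 2 and 0.45 for number 3.

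**Figure D1:**
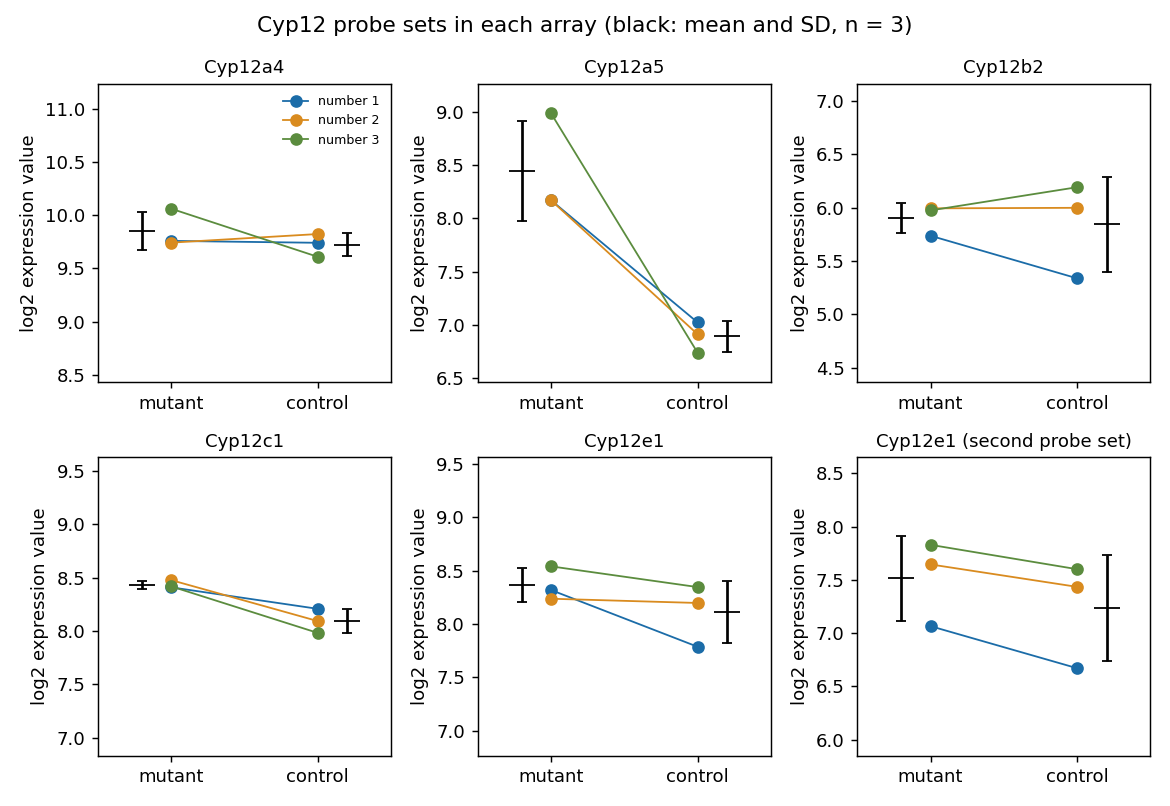
Each panel shows the log2 expression value (y axis) of 1 Cyp12 probe set in the mutant and control arrays (x axis), with a line joining arrays of the same replicate number and black marks for the mean and SD of 3 arrays. The Cyp12a5 and Cyp12c1 groups do not overlap, while arrays numbered 1 are lowest in both genotypes for Cyp12b2 and for the second probe set of Cyp12e1.

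Cyp12e1, also on arm 3R, was measured by 2 probe sets that differed more between array numbers than between genotypes. The brighter probe set, used for the gene, had log2 values of 8.32, 8.24 and 8.54 in the mutant, against 7.79, 8.20 and 8.35 in the control. Control array 1 was the lowest and mutant array 3 the highest. The difference was 0.26 with an SE of 0.17, and the mutant was higher for each number, by 0.53, 0.04 and 0.19. The second probe set had values of 7.07, 7.65 and 7.83 in the mutant, against 6.67, 7.43 and 7.60 in the control. Here both arrays numbered 1 were below all others, and the mutant exceeded the control of the same number by 0.39, 0.21 and 0.23. Its genotype difference of 0.28 (SE 0.30) was close to that of the brighter probe set.

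Cyp12b2, the member on arm 2R and the dimmest of these measurements, had log2 values of 5.74, 5.99 and 5.97 in the mutant, against 5.34, 5.999 and 6.19 in the control. Control arrays were both the lowest, array 1, and the highest, array 3, with all mutant values between them. The mean was 5.90 ± 0.14 in the mutant and 5.84 ± 0.45 in the control (SD, n = 3 each), a difference of 0.059 with an SE of 0.23. Within numbers the sign was not the same, with 0.40, -0.0050 and -0.22 for numbers 1, 2 and 3.

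The Cyp12 family has further genes on the array, Cyp12d1-d and Cyp12d1-p, a pair of near-identical copies on arm 2R that are known to be induced by foreign compounds such as caffeine. One probe set is assigned to Cyp12d1-d alone and 1 to both copies, and transcripts of the copies may not be separable by either. The Cyp12d1-d probe set had values of 8.498, 8.13 and 8.86 in the mutant, against 8.44, 8.06 and 8.13 in the control, a difference of 0.28 (SE 0.20). The shared probe set had 7.81, 8.06 and 8.55 in the mutant, against 7.75, 8.06 and 7.98 in the control, a difference of 0.21. In both, the mutant and control arrays numbered 1 and 2 were close together and mutant array 3 was the highest. Of the 8 Cyp12 probe sets, 6 had their highest value in mutant array 3, those of Cyp12a4, Cyp12a5, Cyp12e1 and Cyp12d1. Both Cyp12e1 and Cyp12d1 are counted with 2 probe sets, so these are not 6 separate genes. By gene, 3 of the 5 members were highest in this array, beside 17.5% of all genes. The members were listed with their differences known, so nothing is read from this count.

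**Figure D2:**
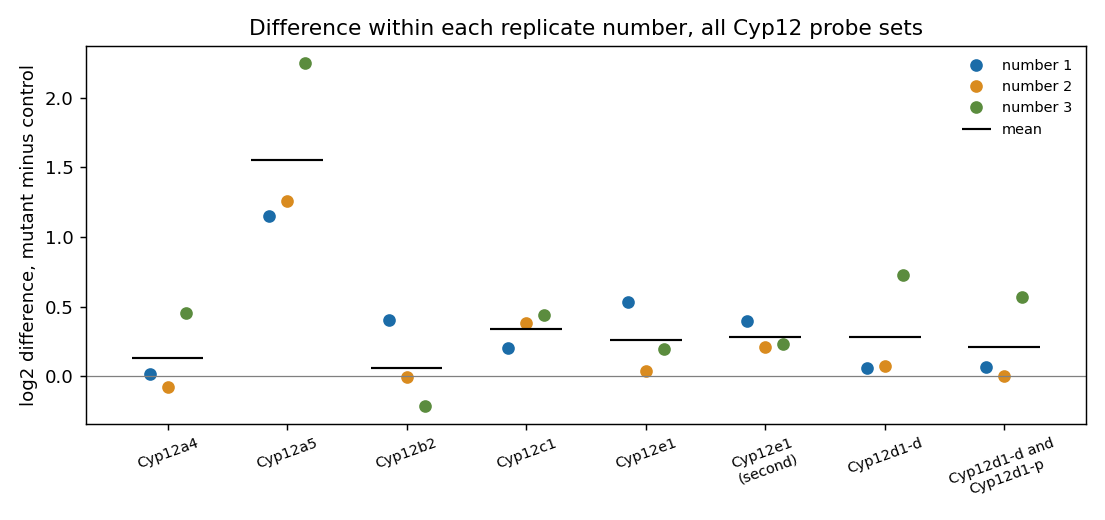
The log2 difference of mutant minus control (y axis) is plotted for arrays of the same replicate number (coloured points) and as the mean (black line) for the 8 Cyp12 probe sets (x axis). Cyp12a5 lies between 1.15 and 2.25, and for Cyp12a4, Cyp12a5 and both Cyp12d1 probe sets, as for Cyp12c1 at 0.44, the largest difference is that of number 3.

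Array numbers were compared because the deviations of same-numbered arrays from their group means correlated over genes. With genotype in the fit, 989 of 11983 genes (8.25%) were called between arrays numbered 3 and arrays numbered 1. None of the 5 Cyp12 genes was among them, and 2 had an unadjusted p under 0.05, as did 26.4% of all genes. These differences were also known when the genes were listed. Cyp12b2 had a mean of 6.08 in arrays numbered 3 and 5.54 in arrays numbered 1, a difference of 0.55 (SE 0.16). For Cyp12e1 the means were 8.44 in arrays numbered 3 and 8.05 in arrays numbered 1, a difference of 0.39 (SE 0.14). Cyp12a5 differed by 0.27 (SE 0.27), Cyp12a4 by 0.09 (SE 0.15) and Cyp12c1 by -0.11 (SE 0.11). The median of the 5 was 0.27, beside 0.03 over all genes.

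The second probe set of Cyp12e1 went further, with means of 7.71 in arrays numbered 3 and 6.87 in arrays numbered 1. The difference was 0.85 (SE 0.11). The 3′ to 5′ gap of the actin control probe sets, a measure of RNA integrity, was 2.39, 1.53 and 1.63 in mutant arrays 1, 2 and 3, and 2.34, 1.84 and 1.61 in control arrays 1, 2 and 3. It was thus largest in both arrays numbered 1, where Cyp12b2 and the second Cyp12e1 probe set were lowest, and its part in these values was not tested.

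**Figure D3:**
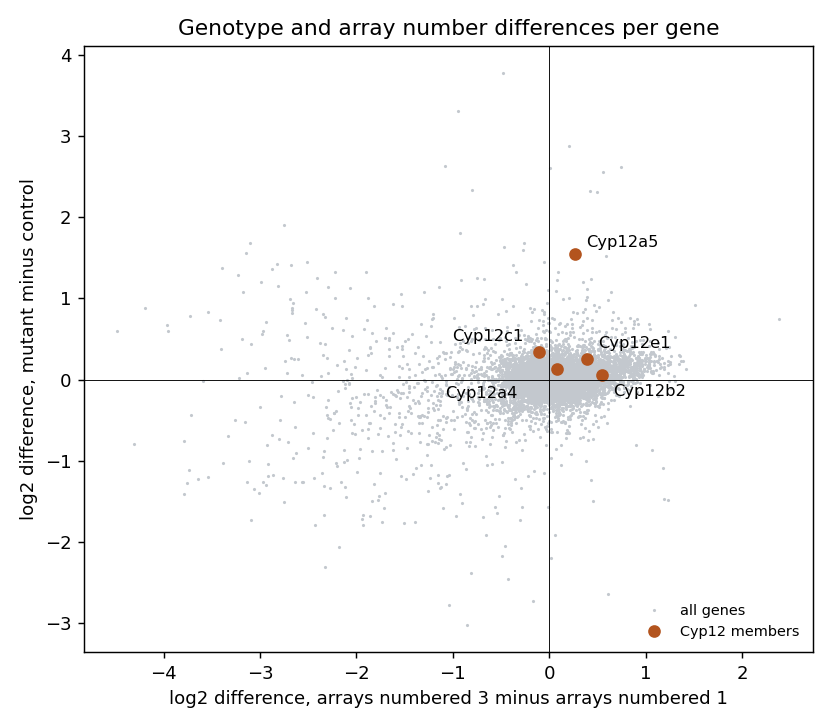
Each point is 1 gene, with the log2 difference of arrays numbered 3 minus arrays numbered 1 on the x axis and of mutant minus control on the y axis, and the 5 Cyp12 genes are marked. Cyp12a5 stands out along the genotype axis at 1.55, while Cyp12b2 and Cyp12e1 lie to the right of zero at 0.55 and 0.39.

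The remaining mitochondrial P450 genes of the fly were measured as a comparison. They are dib, sad and shd, which encode enzymes of ecdysone synthesis, Cyp301a1, which is required for normal cuticle, and Cyp49a1. By limma 0 of these 5 were called between the genotypes. In the same fits an unadjusted p under 0.05 was seen in 0 without and in 2 with the replicate block. Over all genes these shares were 5.27% and 11.2%. The median difference of the 5 genes was -0.06, in a range from -0.54 to 0.04. Cyp301a1 had values of 6.77, 6.73 and 5.53 in the mutant, against 7.52, 7.03 and 6.11 in the control, a difference of -0.54 (SE 0.46, limma adjusted p = 0.998). Cyp49a1 had values of 6.67, 6.36 and 6.11 in the mutant, against 7.11, 6.63 and 6.42 in the control, a difference of -0.34 (SE 0.22, limma adjusted p = 0.998). Both were lower in the mutant for every number, though the groups overlapped. Both were also called lower in arrays numbered 3 than in arrays numbered 1, Cyp301a1 by -1.32 (SE 0.13, limma adjusted p = 0.0186) and Cyp49a1 by -0.63 (SE 0.10, limma adjusted p = 0.0335). The difference between these genes and the Cyp12 genes was not tested.

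Among 75 measured microsomal P450 genes limma called 0 without and with the replicate block, beside 0.159% and 0.818% of all genes. At an unadjusted p under 0.05 there were 8 without the block and 15 with it, beside 5.27% and 11.2% of all genes. The mean was higher in the mutant for 41 of the 75, beside 48.2% of all genes. The differences of the 75 genes ranged from -0.48 to 0.86 with a median of 0.04. That of Cyp12a5 lay outside this range and those of the other 4 Cyp12 genes inside it. The Cyp12 genes were listed with their differences known, so their place beside this range is a description. Cyp9b2, with a mean of 10.70 ± 0.44 in the mutant and 9.95 ± 0.11 in the control (SD, n = 3 each), differed by 0.76 (SE 0.22, limma adjusted p = 0.609). Its groups did not overlap, with the mutant higher, as in 4.11% of all genes. The highest value was that of mutant array 3, at 11.19, as in 17.5% of all genes. The spookier gene spok, of ecdysone synthesis, differed by 0.59 (SE 0.16, limma adjusted p = 0.547).

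**Figure D4:**
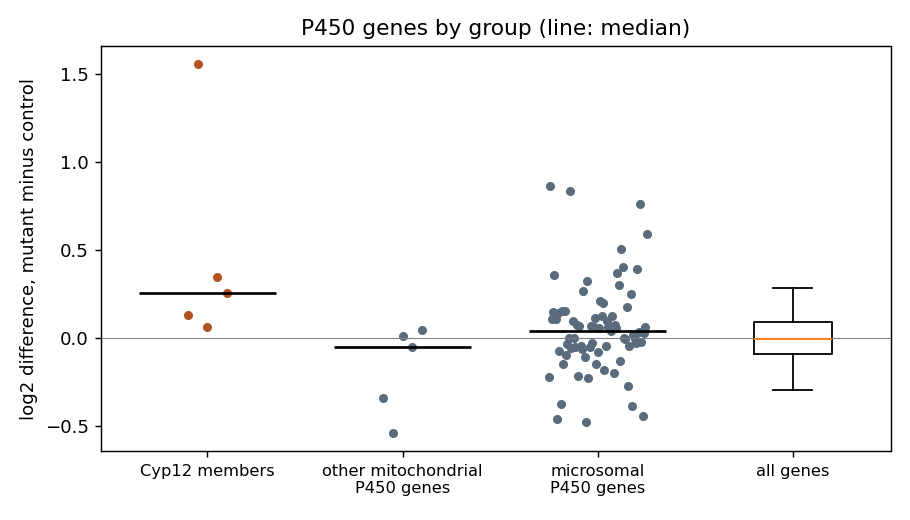
The log2 difference of mutant minus control (y axis) is shown for each gene of 3 P450 groups (points, with a line at the median) and for all genes (box from the lower to the upper quartile, whiskers at the 5th and 95th percentiles). Cyp12a5 at 1.55 lies above every other P450 gene plotted, and the group medians are 0.26 for the Cyp12 genes, -0.06 for the other mitochondrial genes and 0.04 for the microsomal genes.

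Mitochondrial P450s depend on ferredoxins, and 2 genes of this step were measured, Fdx1 and Fdx2, while the ferredoxin reductase gene dare was not analysed here. Fdx1 had values of 8.41, 8.52 and 8.48 in the mutant, against 8.33, 8.36 and 8.29 in the control, a difference of 0.14 (SE 0.08, limma adjusted p = 0.998). Every mutant value of Fdx1 lay above every control value, as in 4.11% of all genes. Fdx2 differed by 0.11 (SE 0.13, limma adjusted p = 0.998) with overlapping groups. Of 7 regulators of detoxification genes, namely cnc, Keap1, maf-S, Hr96, ERR, ss and tgo, limma called 0, with 0 at an unadjusted p under 0.05 with or without the block, and their differences lay between -0.18 and 0.05. The nuclear receptor gene Hr96 had the smallest p, with a difference of -0.18 (SE 0.11, limma adjusted p = 0.998), followed by Keap1, which encodes the inhibitor of the transcription factor CncC, with -0.13 (SE 0.14, limma adjusted p = 0.998).

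Cyp12a5 and Cyp12a4 are consecutive in the annotation of arm 3R, with CG6040 next to Cyp12a5 on one side and Ppcs next to Cyp12a4 on the other, and no annotated gene between any of the 4. Ppcs, whose enzyme acts in the synthesis of coenzyme A, rose in the mutant. Its values were 8.08, 8.17 and 8.20 in the mutant, against 7.29, 7.19 and 7.12 in the control, a difference of 0.95 (SE 0.09, limma adjusted p = 0.0215, and 0.0239 with the replicate block). The call was lost whichever array was left out, where the limma adjusted p ranged from 0.0574 to 0.177, and a second Ppcs probe set differed by 0.47 (SE 0.18, limma adjusted p = 0.904). CG6040 went the other way, with a mean of 6.91 ± 0.34 in the mutant and 7.63 ± 0.54 in the control (SD, n = 3 each). Its difference of -0.71 (SE 0.30) was not called (limma adjusted p = 0.937, and 0.0625 with the replicate block). Along this stretch the larger differences of Cyp12a5 and Ppcs were thus separated by Cyp12a4 with 0.13. Farther out, mRpL55, ATPsynD, CG5835 and CG11779 had differences between -0.21 and 0.12.

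**Figure D5:**
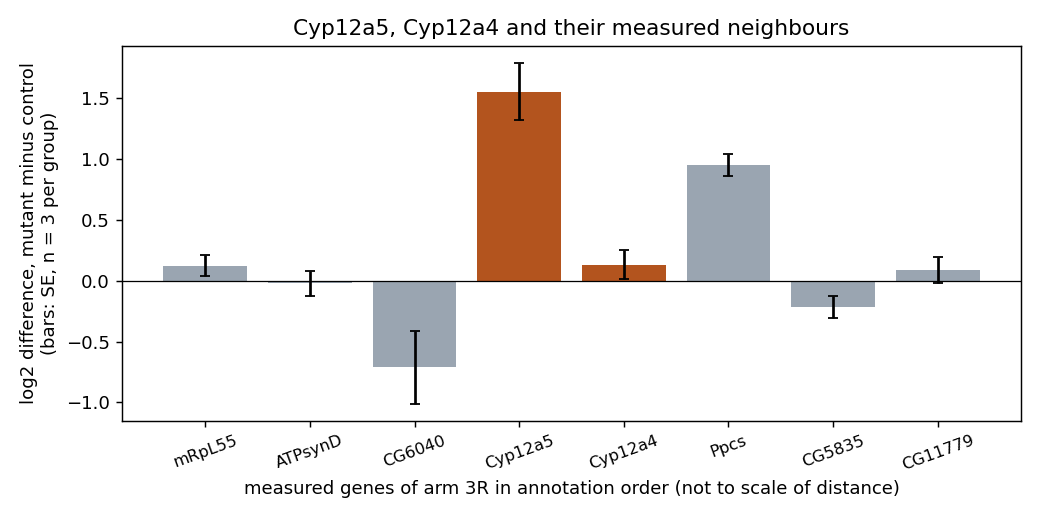
Bars give the log2 difference of mutant minus control with its SE (y axis, 3 arrays per group) for 8 measured genes of arm 3R in annotation order (x axis, not to scale). Cyp12a5 at 1.55 and Ppcs at 0.95 flank Cyp12a4 at 0.13, and CG6040 on the outer side of Cyp12a5 is at -0.71.

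Around the 5 Cyp12 genes, the 3 nearest measured genes on each side were followed, with up to 9 annotated genes between them and the Cyp12 gene. Of these 24 genes, Ppcs alone was called, beside 0.159% of all genes, and the median difference was 0.02. Beside Cyp12b2, Jabba, which encodes a lipid droplet protein, differed by -0.06 (SE 0.17) and CG17821 by 0.12 (SE 0.12). The gene CG18609, also among the nearest measured genes of Cyp12b2, differed by 0.67 (SE 0.21, limma adjusted p = 0.677). The nearest measured genes of Cyp12c1 were Chmp1, directly beside it, which differed by 0.07 (SE 0.16), and CG6893, with 1 annotated gene between, which differed by -0.04 (SE 0.11). Those of Cyp12e1 were CG6345, with 1 annotated gene between, which differed by 0.01 (SE 0.10), and CG6465, with 6 annotated genes between, which differed by -0.24 (SE 0.12). None of these genes was called.

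The genes whose 6 array values followed those of each Cyp12 gene most closely were named by Pearson's correlation, as a likeness of pattern only. With 6 arrays and 11983 genes, values near 1 arise for any gene. For Cyp12a5 they were CG11426 (r = 0.982), the ABC transporter gene CG10505 (r = 0.980) and CG7484 (r = 0.975), whose genotype differences of 0.43, 0.40 and 0.49 were smaller than that of Cyp12a5. For Cyp12c1 they were CG5697 (r = 0.994), the splicing factor gene Prp6 (r = 0.992) and CG6638 (r = 0.988). Cyp12e1 was followed by the calcium pump gene SPoCk (r = 0.997), Gycalpha99B (r = 0.995) and fng (r = 0.994), and Cyp12b2 by the caspase gene Dcp-1 (r = 0.999), CG14435 (r = 0.997) and CG14182 (r = 0.996). Cyp12a4 was followed by CG12133 (r = 0.994), CG32024 (r = 0.987) and Pxt (r = 0.987), whose means in both genotypes lay under the lower quartiles of the arrays. Among the 5 genes themselves the highest correlation was that of Cyp12c1 with Cyp12a5 (r = 0.891), followed by Cyp12e1 with Cyp12b2 (r = 0.773) and Cyp12a5 with Cyp12a4 (r = 0.724), over 6 arrays that include both genotypes.

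Markers of organs were followed beside these values. For Malpighian tubules 6 of 7 markers were measured, and their mean level lay between 7.29 and 7.60 in the mutant and between 7.21 and 7.31 in the control. Limma called 0 with or without the replicate block. At an unadjusted p under 0.05 there were 2 without the block and 3 with it, beside 5.27% and 11.2% of all genes. The 2 found without the block moved in opposite directions. The chloride channel gene SecCl differed by -0.40 (SE 0.09, limma adjusted p = 0.414) and the zinc transporter gene ZnT35C by 0.80 (SE 0.33, limma adjusted p = 0.923). For the midgut 6 of 9 markers were measured. Their mean levels lay between 12.10 and 12.27 in the mutant and between 12.11 and 12.43 in the control. Of these 6, 5 were lower in the mutant and 1 higher, with a median difference of -0.19, beside -0.0060 over all genes. Limma called 0, with 1 at an unadjusted p under 0.05 in each fit. Without the block it was the trypsin gene alphaTry (-0.31, SE 0.11, limma adjusted p = 0.821). For the fat body 7 of 8 were measured, with mean levels between 9.82 and 9.97 in the mutant and between 9.87 and 10.02 in the control. Of these 0 were called, with 0 at an unadjusted p under 0.05, with or without the block. Of 7 epidermis, 4 neuron and 4 prothoracic gland markers measured limma called 0 between the genotypes, with or without the block. Without the block 0, 0 and 1 of them had an unadjusted p under 0.05, the last being spok. With the block these counts were 2, 1 and 1, beside 11.2% of all genes. The part of these organs in the Cyp12 values was not tested.

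Between array numbers, 4 of 7 epidermis markers were called lower and 2 of 4 measured neuron markers higher in arrays numbered 3 than in arrays numbered 1, beside 3.35% and 4.91% of all genes. The median differences were -0.72 for epidermis and 0.61 for neurons. Of the measured tubule markers 1 of 6 was also called higher in arrays numbered 3, the potassium channel gene Irk3 (0.53, SE 0.11, limma adjusted p = 0.0491), and of the fat body markers 1 of 7, the lipid droplet gene Lsd-1 (0.60, SE 0.10, limma adjusted p = 0.0354). Their part in the differences of Cyp12b2 and Cyp12e1 between array numbers was not tested.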

How the data were processed

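Biotin-labelled total RNA was measured on Affymetrix arrays, per the labels. The authors deposited log2 values per probe set, which the submitters' processing notes credit to RMA with no version. That the scale is log2 follows from the range of the values. RMA gives all arrays nearly the same distribution, so a shift shared by most genes cannot be seen.

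Of 18952 probe sets, 183 controls were left out. The platform table of 2016 names 1 gene for 13647, several for 402 and none for 4720. The brightest probe set of each gene by its mean over the arrays was kept, giving 11983 genes. Gene order and arms come from the NCBI table of Release 6, in which 11894 genes matched.

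The genotype fit used limma 3.58.1 (R 4.3.3; lmFit and eBayes, two-sided) over all genes, without a block. Array numbers were compared with genotype and number in the fit. Alternatives were other scalings, filters, priors, array weights, other uses of probe sets, the replicate block and left-out arrays. The fits were tested on simulated data with independent noise for each gene and array. The simulation held no difference between array numbers, so it does not cover arrays paired by number. Deviations of same-numbered arrays correlated at 0.684, 0.152 and 0.756, so the numbers, which come from the titles, were taken to pair the arrays, although mutant 2 correlated more with control 1 (0.354). The genes, lists and tests were chosen with earlier results of these data known. The microsomal list took symbols starting with Cyp, and 3 cyclophilin genes with such symbols (Cyp1, Cyp40 and Cypl) were left out after the data were seen. The phantom gene was not analysed here. Named were all members, called or else the 2 smallest-p genes of each list, the nearest neighbours and the 3 most alike genes. Precision is limited by the number of arrays. Protein and promoter sequences were not used here. Plots were drawn with matplotlib 3.10.9.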

Additional observations from a re-analysis of the deposited data

How the results depend on the processing

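The count of Cyp12 genes called between genotypes was 0. It became 1, Cyp12a5, with array weights, where 82 of all genes were called, and without mutant replicate 3, where 14 were called. Fits with 1 array left out thus ranged from 0 to 1 Cyp12 genes. With the replicate block the Cyp12 count stayed at 0. Between array numbers the count was 0 and became 1, Cyp12e1, with all probe sets tested and with probe sets averaged per gene, and it ranged from 0 to 1 with 1 array left out, where Cyp12b2 was called without mutant replicate 1. Over everything tested, 1125 probe sets were called between array numbers with all probe sets tested, and 827 genes with probe sets averaged per gene. The 5 genes were selected on these contrasts, and the counts of Cyp12 genes called support nothing. Of the neighbours 1 was called, Ppcs, and 0 with probe sets averaged, 0 with both arrays numbered 1 left out and 0 in every fit without 1 array. Over all genes the 19 calls between genotypes became 98 with the replicate block, 11 in the upper 60% of genes, where fewer are tested, 82 with array weights, 0 with both arrays numbered 1 removed, and from 5 to 18 when a single array was removed. The 989 calls between array numbers became 60 to 1257 with 1 array left out. The other P450 groups, the redox partners and the regulators had 0 calls in all 15 alternatives, and so had the microsomal list with the 3 cyclophilin genes, a setting chosen after seeing the data. The differences of the 5 genes moved by less than 1 within-group SD in all 75 alternatives, but this was largely fixed in advance. Settings such as the replicate block and the other prior cannot change a difference. With 3 arrays per group, leaving out 1 array cannot move it by 1 SD, so no robustness is read from this bound. Direction was kept except for Cyp12b2, negative in 3 of 14. That of Cyp12a5 ranged from 1.28 to 1.75, of Cyp12c1 from 0.29 to 0.41, of Cyp12a4 from 0.026 to 0.19 and of Cyp12e1 from 0.094 to 0.37. The difference of Kdm4A was -2.01 without both arrays numbered 1 (limma adjusted p = 0.077). Why the counts and the Kdm4A call changed between settings was not tested. The number of arrays and the low signal of Cyp12b2 limit what can be shown.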
